A study of Homo sapiens with 4 samples.

Results

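The 10 genes described here encode proteins of meiotic chromosome pairing and exchange: SYCP1, SYCP2, SYCP3, HORMAD1, STAG3, SMC1B, REC8, DMC1, SPATA22 and MEIOB. They were taken by symbol, through GENCODE release 29, from the 58735 gene rows of a read-count table, and all 10 had a row. The table holds RNA-seq of A549, an established line of human lung adenocarcinoma cells, in 2 groups of 2 libraries. Control cells carried a non-targeting guide (sgNTC) and UHRF1 KO cells carried a guide against UHRF1 (sgUHRF1), and all cells of both groups had received the guide in the lentiCRISPRv2-hygro lentiviral vector and been selected with hygromycin. UHRF1 is the protein that recognises half-methylated DNA after replication and brings in the maintenance methyltransferase DNMT1. The labels do not say whether the cells were pools or clones, how long after infection they were harvested, or whether replicates were separate cultures, so p-values reflect only how far these libraries differ, which can be technical.

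In meiosis, homologous chromosomes pair along protein axes, are joined by the synaptonemal complex and exchange DNA at programmed breaks, before the divisions that make haploid cells. The axes are built on cohesin rings with meiosis-specific subunits, and the breaks are repaired by a recombinase that loads on single-stranded DNA covered by binding proteins. Most genes of this machinery are silent in somatic tissue, many of them under DNA methylation or under repressor complexes that contain the factor E2F6, and some are known to be switched on in tumour cells.

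Library totals ran from 18604598 to 23977168 counts, and 1 count was worth 0.0402 to 0.0561 CPM (the count scaled to library size, with TMM factors). UHRF1 had 1740 and 1834 counts in the controls and 811 and 1000 in UHRF1 KO, or 98.2 ± 0.90 against 39.7 ± 0.79 CPM (SD, n = 2 each), so its RNA was 2.47-fold lower (edgeR quasi-likelihood test, adjusted p = 3.92e-20) and still present. A guide directs a cut in DNA, so the RNA level is only a partial check of the labels. The epithelial markers KRT8, KRT18, KRT7, EPCAM, CDH1 and MUC1 were all tested (2 rose and 4 fell, beside 32.0% higher and 30.1% lower over all genes tested). EPCAM (log2 2.16) and MUC1 (log2 2.51) rose, while the keratins and CDH1 fell (log2 -0.43 to -0.34). Their summed levels, mostly keratin, were 4842 and 4624 CPM in the controls and 3703 and 3680 CPM in UHRF1 KO.

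Of the 10 meiosis genes, 8 had enough counts to be tested. SPATA22, REC8 and HORMAD1 were higher in UHRF1 KO, MEIOB was lower, and SYCP2, SYCP3, STAG3 and DMC1 did not pass the test. SYCP1 and SMC1B were too low to test. Over all 17030 genes tested, 32.0% were called higher and 30.1% lower, or 62.0% in either direction, at an adjusted p under 0.05 (edgeR quasi-likelihood test, Benjamini-Hochberg). The 3 higher and 1 lower of 8 are read against those shares, and with so few genes nothing particular to the members is drawn from them. SPATA22 was the single member called higher at 2-fold or more, against 15.4% of all genes tested, and it passed the filter on low counts only through its UHRF1 KO libraries. The median log2 difference of the 8 tested members was 0.44, and that over all genes tested was 0.02. The member median includes SPATA22 and also SYCP3, which had 15 and 7 counts in the controls. SYCP3, too, passed the filter only with its UHRF1 KO libraries, so the member median is partly set by the filter and cannot be set against that of all genes. Summed over the 10 genes, levels were 32.5 and 29.9 CPM in the controls and 39.7 and 37.5 CPM in UHRF1 KO, or 37.8 and 35.04 CPM there with SPATA22 left out. In bulk RNA, a change in the number of cells that express a gene and a change in RNA per cell cannot be told apart.

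**Figure D1:**
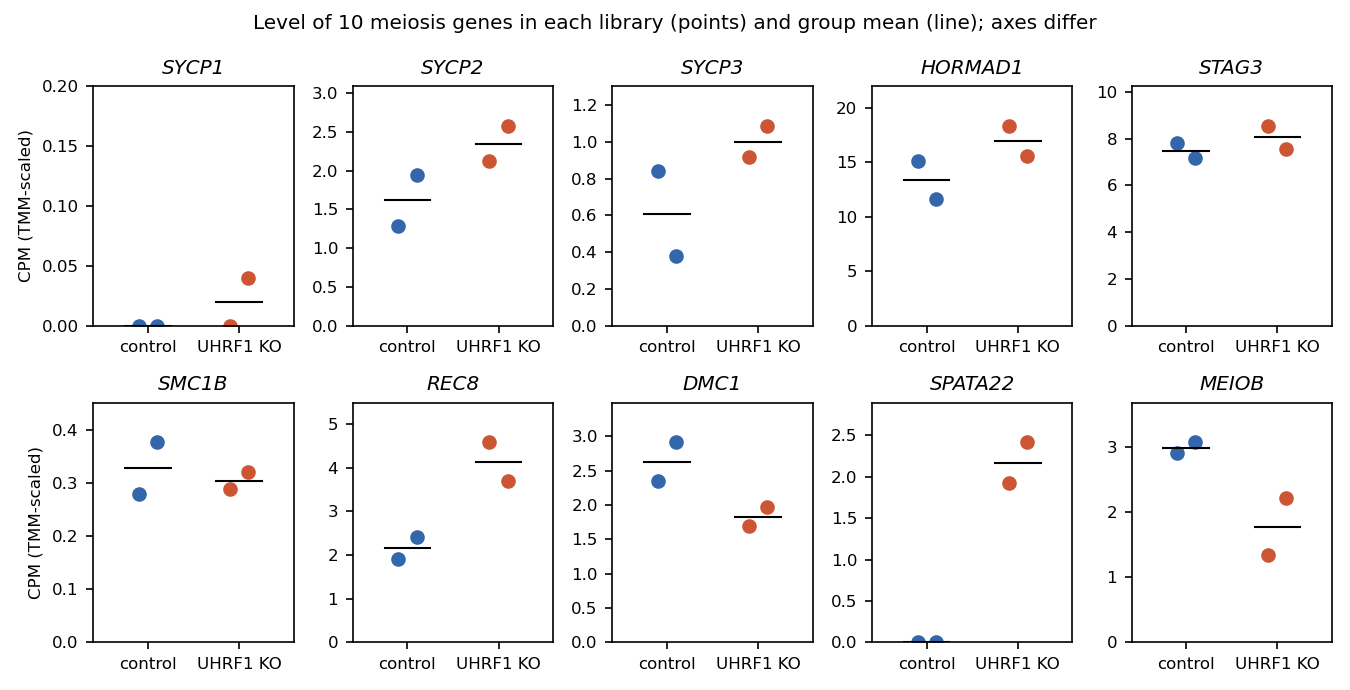
Level of each of the 10 meiosis genes in each library, in CPM, with points for the 2 control and the 2 UHRF1 KO libraries, lines for group means and a separate scale for each gene. SPATA22 is at 0 in both controls and at 1.93 and 2.41 CPM in UHRF1 KO, while the STAG3 and SMC1B points of the groups overlap.

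Promoters are shown because these genes are often described as targets of E2F6. The motif TCCCGC, a core motif of E2F proteins that is not specific to E2F6, can be searched for directly. RefSeq promoter windows (GRCh38.p14, 250 bases before to 50 after a transcription start) were matched for 8 of the 10 genes, in 9 windows since STAG3 has 2 starts. HORMAD1 and MEIOB had no entry. On either strand, TCCCGC was present in 8 of the 9 windows, belonging to 7 of the 8 genes, against 26.89% of all 35116 windows and 38.09% of the windows of genes tested here. The stretches below give 1 match per window, the one nearest the transcription start, 5′ to 3′ on the strand of the match. TCCCGC is in capitals, with 6 bases on either side.
SPATA22, chr17:3471805-3471822 (minus strand): cctgatTCCCGCgctttc
REC8, chr14:24172060-24172077 (plus strand): ctcgctTCCCGCggtgcg
SMC1B, chr22:45413613-45413630 (minus strand): atccctTCCCGCgctttt
STAG3 second start, chr7:100177906-100177923 (plus strand): gtacgtTCCCGCgctttt
STAG3 first start, chr7:100177497-100177514 (minus strand): gccgggTCCCGCccccct
SYCP1, chr1:114854895-114854912 (plus strand): gcgattTCCCGCcttttc
SYCP2, chr20:59933673-59933690 (minus strand): ggcgctTCCCGCcttccg
SYCP3, chr12:101739492-101739509 (plus strand, opposite to the gene): agccagTCCCGCctcatc
In 6 of the 8 genes the match continued to TTCCCGC, which holds TCCCGC within it. That longer form was looked for only after the stretches had been seen, and 6.553% of all windows and 9.163% of the windows of tested genes hold it on either strand.

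Genes with the motif differed widely in their RNA. SPATA22, which went from 0 counts to 1.93 and 2.41 CPM, SMC1B, which had 5 to 8 counts in every library, and SYCP1, which had at most 1 count, all carried TTCCCGC within 50 bases of the start. DMC1 was the matched gene with no TCCCGC. The E-box CACGTG was present in STAG3 alone among the matched genes (7.256% of all windows, either strand), and the CRE core TGACGT in SPATA22 alone (7.982% of all windows, either strand). CpG dinucleotides, the sites that UHRF1 and DNMT1 act on, numbered 15 in the SYCP1 window and 20 to 41 in the others, beside a median of 14 over all windows and 24 over those of tested genes. The SPATA22 window held 27 CpGs at an observed-over-expected ratio of 0.83, and the SMC1B window held 34 at 1.17. GENCODE gives 14 transcript starts for SPATA22, from 3468357 to 3513852 on chr17, and which of them the reads came from was not determined. A match describes letters in a window and no binding or methylation was measured here.

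**Figure D2:**
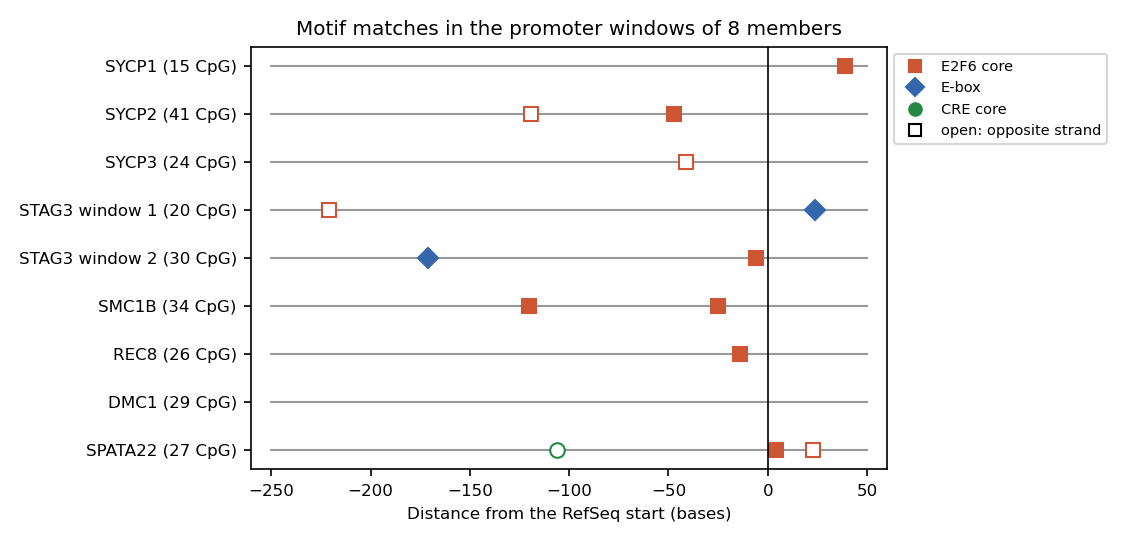
Motif matches in the RefSeq promoter windows of the 8 matched genes, by distance in bases from the transcription start, with 1 row per window, 1 symbol per motif and open symbols for the opposite strand. TCCCGC matches lie in every row other than that of DMC1.

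The genes of the chromosome axis and the synaptonemal complex come first, and of these HORMAD1 alone passed the test. SYCP1 (ENSG00000198765, chr1:114854803-114995370), the gene for the transverse filament that spans the complex, had 0 counts in 3 libraries and 1 count in UHRF1 KO 2. A count of 0 allows up to 3 counts, which is 0.168 and 0.162 CPM in the 2 controls and 0.145 CPM in UHRF1 KO 1. No difference in SYCP1 was detected at this depth.

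SYCP2 (ENSG00000196074, chr20:59863563-59933655), which forms the lateral element together with SYCP3, measured 1.29 and 1.94 CPM in the controls and 2.12 and 2.57 CPM in UHRF1 KO. SYCP3 (ENSG00000139351, chr12:101728648-101739472), its partner in the axis core, measured 0.841 and 0.377 CPM in the controls and 0.916 and 1.09 CPM in UHRF1 KO. For both genes the UHRF1 KO libraries lay above both controls, which was also so for 41.6% of all genes tested, but neither passed the test. The log2 difference was 0.54 (SE 0.29, adjusted p = 0.101, edgeR) for SYCP2 and 0.73 (SE 0.44, adjusted p = 0.155, edgeR) for SYCP3. SYCP2 did pass without control replicate 2 (log2 0.85, adjusted p = 0.0396, edgeR) and with GC and length trends removed (log2 0.79, adjusted p = 0.0147, edgeR). The exons of SYCP3 share 566 bases, or 14.8% of their length, with CHPT1 on the opposite strand, and the sources do not state whether the counting used strand.

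HORMAD1 (ENSG00000143452, chr1:150698060-150720888) encodes an axis protein that marks chromosomes not yet synapsed and is a known cancer-testis antigen. It was the most abundant member per length in both groups, at 5.56 CPM per kilobase of exon in the controls and 7.05 in UHRF1 KO. Its level was 15.1 and 11.6 CPM in the controls and 18.3 and 15.6 CPM in UHRF1 KO. The groups came close, since the lower UHRF1 KO library stood only just above the higher control. The rise was 1.26-fold (log2 0.34, SE 0.12, adjusted p = 0.0123, edgeR). It was lost without control replicate 2 (log2 0.13, adjusted p = 0.372, edgeR), without UHRF1 KO replicate 1 (log2 0.22, adjusted p = 0.167, edgeR), in DESeq2 (log2 0.32, adjusted p = 0.204) and with recentring (log2 0.13, adjusted p = 0.304, edgeR), and over all settings its adjusted p ran from 0.000267 to 0.372.

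The meiotic cohesin genes split, with REC8 higher and STAG3 and SMC1B not. REC8 (ENSG00000100918, chr14:24171853-24180257) is the kleisin that closes the meiotic ring and holds sister chromatids together until the second division. It had 34 and 45 counts in the controls and 95 and 92 in UHRF1 KO, which is 1.91 and 2.43 CPM against 4.58 and 3.70 CPM. Both UHRF1 KO libraries stood clear of both controls. The rise was 1.90-fold (2.17 ± 0.37 to 4.14 ± 0.62 CPM, SD, n = 2 each; log2 0.92, SE 0.23, adjusted p = 8.94e-04, edgeR). It passed in 12 of 14 alternative settings, and was lost in DESeq2 (log2 0.91, adjusted p = 0.0566) and with recentring (log2 0.44, adjusted p = 0.0951, edgeR).

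STAG3 (ENSG00000066923, chr7:100177563-100221488), the ring subunit that takes the place of STAG1 and STAG2 in meiosis, measured 7.80 and 7.17 CPM in the controls and 8.53 and 7.56 CPM in UHRF1 KO. The groups overlapped, and the log2 difference of 0.10 (SE 0.14, adjusted p = 0.554, edgeR) turned to -0.19 with recentring. Its counts are uncertain: 32.3% of its exonic length is shared with other genes, among them PVRIG on the same strand and CASTOR3 on the opposite one. On the same chromosome lie 6 gene models named for partial copies of STAG3. Among those models 3 were higher and 1 was lower, and the sources do not state how reads that match several copies were treated. SMC1B (ENSG00000077935, chr22:45344063-45413619), the meiotic form of the SMC1 arm of the ring, had 5 and 7 counts in the controls and 6 and 8 in UHRF1 KO. It stayed near the detection limit in every library, and without a filter its log2 difference was -0.13 (adjusted p = 0.915, edgeR).

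The somatic cohesin genes moved the other way from REC8. RAD21, the mitotic kleisin, fell from 39.2 to 29.4 CPM per kilobase (log2 -0.42), SMC1A from 31.5 to 23.4 (log2 -0.43) and SMC3, which serves both kinds of ring, from 34.6 to 25.3 (log2 -0.45). STAG1 fell from 6.64 to 4.61 CPM per kilobase (log2 -0.53) and STAG2 from 20.5 to 15.9 (log2 -0.37), although STAG2 was lost with GC and length trends removed (log2 -0.09, adjusted p = 0.0531, edgeR). As a share of the summed CPM per kilobase of REC8 and RAD21, REC8 made up 1.28% and 1.55% in the controls and 3.81% and 3.24% in UHRF1 KO. STAG3 made up 3.36% and 2.89% of STAG1, STAG2 and STAG3 in the controls and 4.59% and 4.16% in UHRF1 KO, and SMC1B at most 0.325% of SMC1A and SMC1B in any library. These shares are descriptions with no test. In the wider list of somatic counterparts (cohesin, its loaders and releasers, and the RPA proteins), 15 of 18 tested genes fell and 0 rose by edgeR at the adjusted threshold, against 30.1% and 32.0% of all genes tested. At an unadjusted p under 0.05, 1 of them was higher by edgeR, and DESeq2 called 15 lower and 0 higher. The largest falls were those of SGO1 (log2 -0.74), which protects centromeric cohesin, and RPA3 (log2 -0.63).

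**Figure D3:**
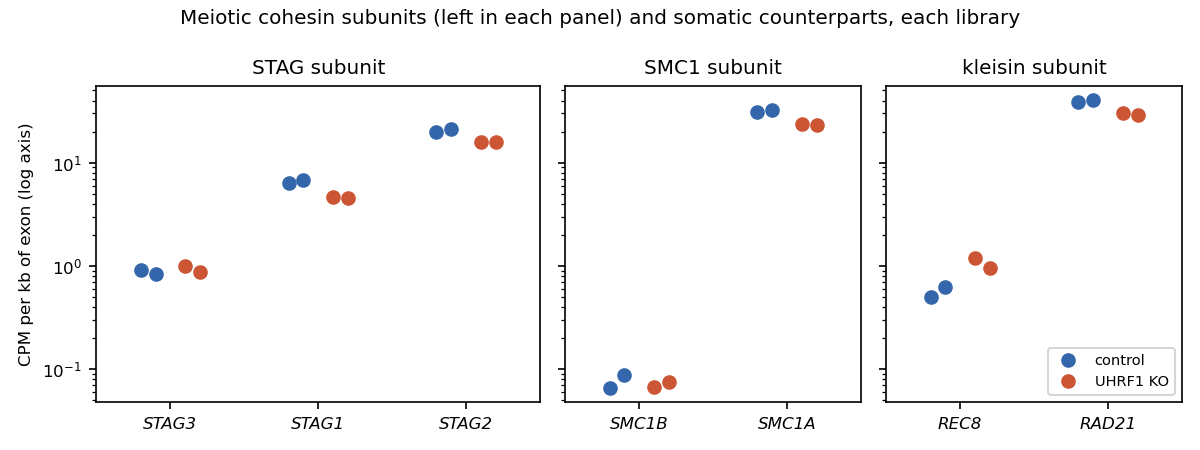
Levels of meiotic and somatic cohesin genes in each library, in CPM per kilobase of exon on a log axis, for control and UHRF1 KO. REC8 lies higher in UHRF1 KO, and RAD21, SMC1A, STAG1 and STAG2 lie lower, at levels well above those of the meiotic forms.

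Among the recombination genes, SPATA22 appeared and MEIOB, whose protein binds to SPATA22, fell. MEIOB is a relative of RPA1 that coats single-stranded DNA at meiotic breaks, and SPATA22 works with it there to keep recombinase in place. SPATA22 (ENSG00000141255, chr17:3440019-3513852) had 0 and 0 counts in the controls and 40 and 60 in UHRF1 KO, or 1.93 and 2.41 CPM. Neither control had a read and both UHRF1 KO libraries were far above the limit of 3 counts. Against a floor of 3 counts over both controls, SPATA22 was at least 26.3-fold higher (adjusted p = 1.46e-09, edgeR). It passed the filter on low counts only through its UHRF1 KO libraries, so that p-value is not independent of the selection. The alternative settings in which it passed draw on the same 4 libraries. Its exons share 26.6% of their length with other genes, 441 bases with TRPV3 and 320 bases with a gene model without a symbol of its own, both on the same strand. TRPV3, a neighbouring ion channel gene, had 15 and 16 counts in the controls and 105 and 142 in UHRF1 KO (log2 2.66, adjusted p = 1.23e-10, edgeR); it was named after its values had been seen, and the part of shared bases in the SPATA22 counts was not tested.

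MEIOB (ENSG00000162039, chr16:1833987-1884294) measured 2.92 and 3.07 CPM in the controls and 1.35 and 2.21 CPM in UHRF1 KO. Both UHRF1 KO libraries were below both controls, as for 38.4% of all genes tested, but they differed from each other more than the controls did. MEIOB fell by 0.73 on the log2 scale (SE 0.27, 1.65-fold lower, adjusted p = 0.0186, edgeR). It did not pass when UHRF1 KO replicate 1 was left out (log2 -0.44, adjusted p = 0.232, edgeR) nor in DESeq2 (log2 -0.77, adjusted p = 0.191). The exons of MEIOB share 18.02% of their length with other genes, 177 bases of it with FAHD1 on the opposite strand, which also fell (log2 -0.29), and 238 with LINC00254, which had 0 counts. The part of the shared bases in the MEIOB counts was not tested. Per length, MEIOB was above SPATA22 in the controls, at 1.30 CPM per kilobase against 0, whereas in UHRF1 KO the means were 0.773 and 0.759 and the libraries overlapped. RPA1, the somatic relative of MEIOB, fell from 29.1 to 25.2 CPM per kilobase (log2 -0.20, adjusted p = 9.02e-05, edgeR).

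DMC1 (ENSG00000100206, chr22:38518949-38570286), the meiosis-specific recombinase, measured 2.36 and 2.91 CPM in the controls and 1.69 and 1.97 CPM in UHRF1 KO. The UHRF1 KO libraries were lower than both controls, but the log2 difference of -0.52 (SE 0.26) did not pass the test (adjusted p = 0.0886, edgeR). It passed only with recentring (log2 -0.69, adjusted p = 0.0195, edgeR).

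**Figure D4:**
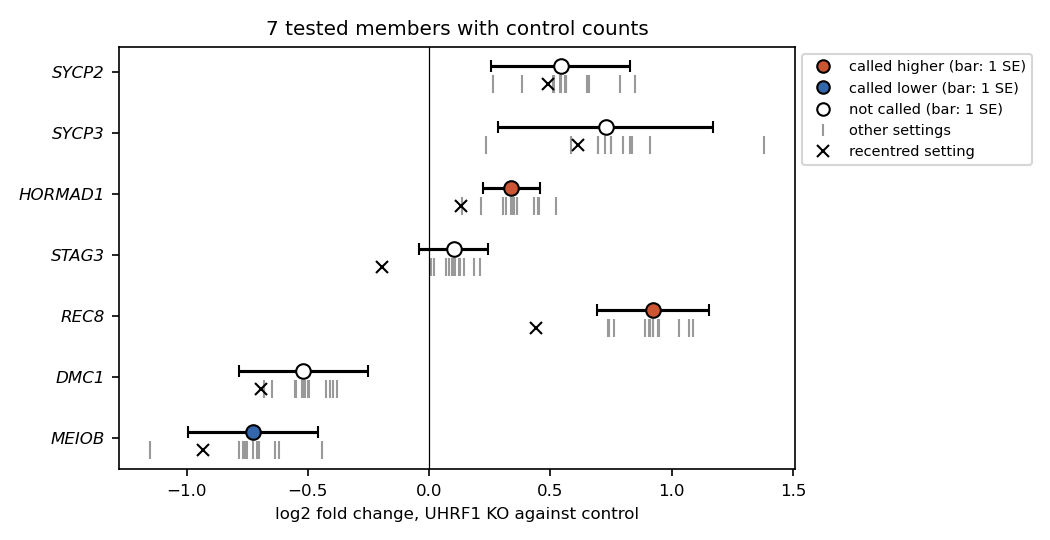
Log2 difference of UHRF1 KO minus control for the tested members other than SPATA22, with filled points for called genes, bars of 1 SE, grey ticks for the alternative settings and crosses for the setting with GC and length trends removed and recentred. REC8 and HORMAD1 lie above 0, MEIOB lies below 0, and STAG3 turns from 0.10 to -0.19 under that setting.

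Ranked by level per kilobase in the controls, HORMAD1 was followed by MEIOB, STAG3 (0.872), DMC1 (0.747), REC8 (0.564), SYCP2 (0.250), SYCP3 (0.159) and SMC1B (0.077), with SPATA22 and SYCP1 at 0. Neighbouring genes in that order did not overlap between libraries, other than SYCP2 with SYCP3. In UHRF1 KO the order after HORMAD1 was REC8 (1.08), STAG3 (0.938), MEIOB (0.773), SPATA22 (0.759), DMC1 (0.519), SYCP2 (0.363), SYCP3 (0.261), SMC1B (0.072) and SYCP1. There REC8 overlapped with STAG3, STAG3 with MEIOB and MEIOB with SPATA22, so those neighbours cannot be ordered.

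Other genes of synapsis and recombination were also called in both directions, and their counts, like those of the lists that follow, stand beside 32.0% higher and 30.1% lower over all genes tested. TEX11, SPDYA, MEI1 and CCDC36, among others, passed the filter only with their UHRF1 KO libraries. The rises and medians of the synapsis and recombination lists given next are therefore partly set by the filter. Of 21 further synapsis and axis genes, 7 were tested, 4 rose and 1 fell, with a median log2 difference of 0.83. TEX11, an X-linked crossover and synapsis protein, had 0 and 0 counts in the controls and 33 and 31 in UHRF1 KO, at least 17.2-fold higher. SPDYA, a partner of CDK2 at meiotic telomeres, rose by 1.40 on the log2 scale (adjusted p = 0.00426, edgeR), a call lost in DESeq2, without control replicate 2 and without UHRF1 KO replicate 1. TRIP13, an ATPase that removes HORMAD proteins from axes and also acts in mitosis, fell by 0.64. Of 28 further recombination genes, 20 were tested, 6 rose and 6 fell, with a median of 0.16. MEI1, a factor of break formation, had 0 and 0 counts in the controls and 16 and 26 in UHRF1 KO, at least 11.02-fold higher. CCDC36, another break factor, had 1 count in the controls together and 27 in UHRF1 KO, a ratio of 21.6 with a 95% counting interval of 3.55 to 882. MND1, which helps DMC1 in strand invasion, fell by 0.94 and FIGNL1 by 0.75. SPO11, the enzyme that makes the breaks, and SYCE1, of the central element, had 0 counts in all 4 libraries.

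Genes of germ cells and of entry into meiosis were called in both directions. The list is mixed and includes general germ cell genes, so its counts do not measure entry into meiosis. Of 13 such genes, 8 were tested, 6 rose and 2 fell, beside 32.0% and 30.1% of all genes tested, with a fitted median log2 difference of 3.82, or 2.92 with genes at 0 in the controls set to their lower bound. That median covers the tested genes alone, of which 3 were at 0 in both controls. Those genes, and also DDX4 (1 and 0 counts in the controls) and BHMG1 (1 and 4), passed the filter on low counts only through UHRF1 KO. The number that rose is thus partly set by the filter, and the median cannot be set against the medians of other lists. DAZL, a germ cell RNA-binding protein, had 0 and 0 counts in the controls and 42 and 72 in UHRF1 KO, at least 29.8-fold higher. TEX101, a germ cell surface protein, had 0 and 0 against 35 and 43, at least 20.7-fold higher. STRA8, also in the list, had 0 and 0 counts in the controls and 6 and 3 in UHRF1 KO, and was too low to test. MEIOC and YTHDC2, which act together to hold germ cells in meiosis, fell by 0.58 and 0.36, YTHDC2 losing its call with GC and length trends removed (log2 -0.09, adjusted p = 0.223, edgeR). Of 20 spermatid genes, which act after meiosis, 11 had 0 counts in all 4 libraries, the protamine genes PRM1 and PRM2 and the transition protein genes TNP1 and TNP2 among them. Of the 4 tested, the sperm calcium channel gene CATSPER1 rose by 1.76 and 3 fell, with TSSK6 (log2 -1.08) and HSPA1L (log2 -0.55) falling most, but TSSK6 was lost in DESeq2 (log2 -1.11, adjusted p = 0.0557) and HSPA1L passed in only 4 of 14 alternative settings.

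**Figure D5:**
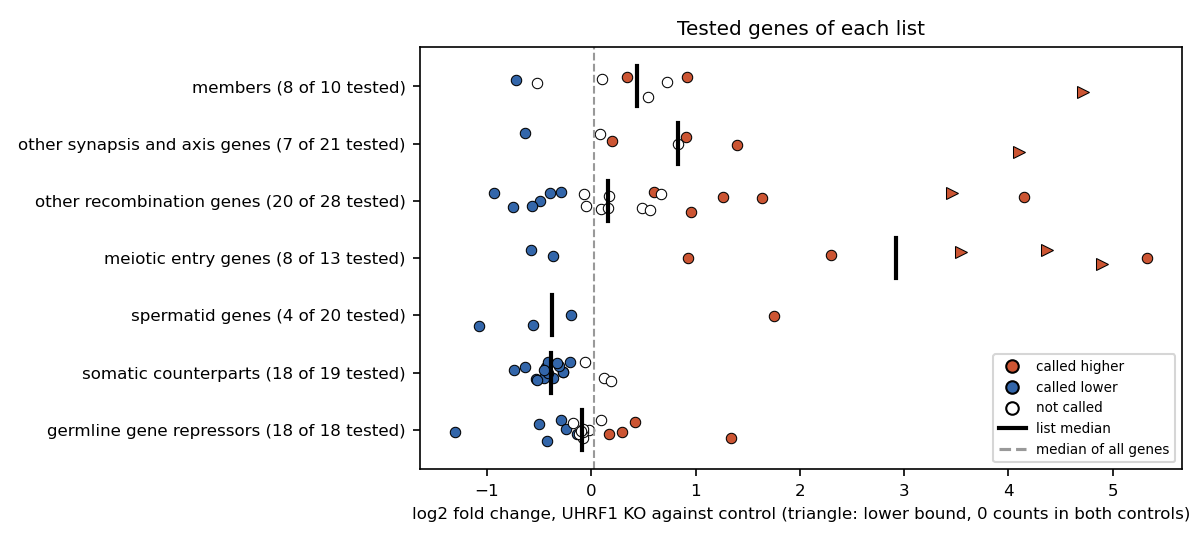
Log2 difference of UHRF1 KO minus control for each tested gene of the 10 meiosis genes and of the other meiosis, spermatid, somatic counterpart and repressor lists, with 1 point per gene filled where called, triangles for lower bounds where both controls were at 0, short black lines for list medians (with bounds) and a dashed line for the median of all genes. The somatic counterparts lie mostly below 0 (median -0.39), and the lower bound for DAZL is 29.8-fold.

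Repressors of germline genes were measured in the same libraries. Of 18, all were tested, 4 rose and 6 fell, beside 32.0% and 30.1% of all genes tested. The 6 include UHRF1, the gene that the guide targets. DNMT3B, a de novo methyltransferase, rose by 1.34 and RNF2, a ubiquitin ligase of polycomb complexes, by 0.42. Besides UHRF1 the largest fall was that of TFDP1 (log2 -0.50), a partner of E2F proteins. DNMT1 fell by 0.14 (adjusted p = 0.00419, edgeR), a call lost with total counts (log2 -0.03, adjusted p = 0.526, edgeR) and without UHRF1 KO replicate 2 (log2 -0.14, adjusted p = 0.0619, edgeR). For E2F6 the log2 difference was -0.02 (adjusted p = 0.790, edgeR), and only with recentring did it pass (log2 -0.22, adjusted p = 0.00279, edgeR).

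Some markers of other cell types rose in UHRF1 KO, while AMH, of testis soma, was tested and not called (log2 -0.17). Of 17 markers of leukocytes, endothelium, fibroblasts, testis soma and pluripotent cells, 7 were tested and 6 rose, beside 32.0% of all genes tested, with summed levels of 11.7 and 11.1 CPM in the controls and 50.3 and 52.5 CPM in UHRF1 KO. Most of that was PECAM1, an endothelial adhesion gene, at 7 and 2 counts against 607 and 759. Some of the tested markers, PECAM1 among them, passed the filter on low counts only through UHRF1 KO. The T cell marker CD3E was at 0 in all 4 libraries, and PTPRC and DCN were at 0 in both controls. The part of these markers in the changes of the meiosis genes was not tested.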

How the data were processed

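RNA-seq was made from 4 A549 libraries, from total RNA extracted with Trizol and a SMARTER mRNA kit, per the labels' protocols. The deposited table holds read counts per Ensembl gene, not normalized. FastQC 0.10.1 and the build GRCh38 are named in the submitters' processing notes. Not given in the sources used here are the aligner, the counting tool with its annotation and strand setting, and how multiply matching reads were treated. All 58735 identifiers matched GENCODE 29, and 24721 were 0 in every library. Columns were matched by name. The label with number 1 stands on both controls, so which control is replicate 1 is less certain than the group.

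Replicates differed by more than counting noise (chi-square per degree of freedom 2.65 for controls over 15331 genes, 1.85 for UHRF1 KO over 17705 genes) and were kept as 2 each. The tools were edgeR 4.0.16 and, for voom, limma 3.58.1, under R 4.3.3: filterByExpr by group (17030 genes), TMM, two-sided quasi-likelihood test (glmQLFit robust, glmQLFTest), Benjamini-Hochberg over all genes tested, threshold 0.05. The biological coefficient of variation was 3.16%, with 2 residual degrees of freedom per gene. Each SE is the absolute log2 difference over the square root of F. A gene at 0 in both controls was given a lower bound against a floor of 3 counts over both. Floors and intervals cover counting error only, since reads carry no molecular identifiers. CPM per kilobase uses the union of annotated exons.

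The members and lists were chosen with earlier results of these data known. Named were UHRF1, all members, their somatic relatives, DNMT1, E2F6, and from each other list up to 2 called genes that rose most and 2 that fell most. Genes outside this rule (TRPV3, PECAM1, DDX4, BHMG1, STRA8, marker genes, genes at 0, neighbours and copies) were chosen after their values were seen. There were 16 alternative settings: other library scalings, filters and thresholds, DESeq2 1.42.0, limma-voom, the replicate number as a block, each library left out, and, added after seeing the data, GC and length trends removed, with and without recentring. A gene's settings exclude the 2 stricter thresholds. Some single genes of the lists are not reported here. The steps were tested on simulated data. Promoter windows come from RefSeq.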

Additional observations from a re-analysis of the deposited data

How the results depend on the processing

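With 2 libraries per group and at most 64 counts in any library for SYCP1, SYCP2, SYCP3, SMC1B, DMC1, SPATA22 and MEIOB, depth limits what could be detected in these genes. Of the members, SPATA22 passed in every setting, but all settings draw on the same 4 libraries, with 0 counts for it in both controls. Recentring lowered the median log2 difference of all genes from 0.02 to -0.23 and total counts raised it to 0.13, so smaller differences are relative to that choice. Calls over all genes were 5445 higher and 5118 lower, 6564 and 3761 with total counts, 3544 and 8221 with recentring, and 2616 and 432 at 2-fold or more. Members called were 3 higher and 1 lower, but 1 and 0 in DESeq2 (2 and 0 at an unadjusted p under 0.05), 1 and 0 at 2-fold or more, 1 and 2 with recentring, and 2 and 0 at an adjusted p under 0.01. Leaving out each library gave 2 to 3 members higher and 0 to 1 lower, with both lowest counts coming without UHRF1 KO replicate 1. At 2-fold or more, 2 of 5 other synapsis, 4 of 12 other recombination and 5 of 8 germ cell and entry genes stayed called. For spermatid genes it was 2 of 4, for somatic counterparts 0 of 15 and for repressors 2 of 10. UHRF1, the targeted gene, is among those repressors. DESeq2 called 3 other synapsis, 8 other recombination and 2 spermatid genes, total counts 2 spermatid genes, and recentring 16 repressors. The bound for SPATA22 was 13.2-fold with a floor of 3 counts in each control. The cause of these shifts was not tested. The replicate numbers do not pair the libraries by label, and the deviations of same-numbered libraries correlated at -0.014 over 17030 genes; with the replicate block, 5280 genes were higher and 4986 lower, and the member counts were 3 and 1.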

Other observations

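Of 40 genes that overlap a member or lie within 20 kb of one, 22 were tested, 8 rose and 6 fell, beside 32.0% and 30.1% of all genes tested. Around SPATA22, TRPV3 rose, while ASPA had 0 and 0 counts in the controls and 2 and 10 in UHRF1 KO, and the olfactory receptor gene OR3A3 had 0 and 0 against 6 and 6. Near REC8, IRF9, a transcription factor of the interferon response, rose by 1.49 on the log2 scale (adjusted p = 1.41e-04, edgeR) and TM9SF1 by 0.26. Near HORMAD1, CTSS, a lysosomal protease, rose by 0.81, and near SMC1B, RIBC2 fell by 0.82. Of the 6 gene models named for partial copies of STAG3, STAG3L3 (log2 0.54), STAG3L2 (0.44) and STAG3L5P (0.55) rose and STAG3L1 fell (log2 -0.72). STAG3L4 had a log2 difference of -0.04. STAG3L5P-PVRIG2P-PILRB, a processed transcript that overlaps STAG3L5P, had one of 0.29 and was not called.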
